A study of Mus musculus with 6 samples.

Results

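The expression of 9 homeobox genes was examined in HSCs sorted from mouse BM. These were the Hox genes Hoxa5, Hoxa7, Hoxa9, Hoxa10, Hoxb4 and Hoxb5 and the genes Meis1, Pbx2 and Pbx3, whose proteins bind DNA beside Hox proteins. They were picked by gene symbol as a family, with earlier results of these data known, and each had 1 of the 21878 rows in every library. RNA-seq libraries came from 3 samples of vehicle-treated control mice and 3 samples of mice given IGF1, a growth factor, once under the skin at 200 µg/kg, with HSCs taken at day 1. All mice were labelled WT, and the methods of the study name the C57BL/6 strain. The methods call all mice age-matched and give male sex for transgenic mice and their littermates, while no age or sex is stated for the mice of these libraries. Nothing states whether the replicates of a group were separate mice or pools, so p-values measure the spread between these samples, which may be technical. The dose and day came from the methods and legends of the study, and the groups from the treatment labels. One label, on RNA extraction, speaks of irradiated mice instead, while the treatment label, the series design and the study name IGF1, so the libraries were taken as IGF1 and control.

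Hox genes lie in 4 clusters and code for transcription factors that read DNA through a homeodomain, the segment of the protein coded by the homeobox. Alone, a Hox protein binds short and common sequences, and partners of the TALE family of homeodomain proteins (Meis, Pbx and their relatives) bind next to it and sharpen the choice of site. In blood, HoxA genes and Meis1 are active in stem and progenitor cells and are switched off as cells mature, and their forced activity, above all that of Hoxa9 with Meis1, drives leukemia with MLL fusion proteins.

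The homeoboxes of Hoxa10, Meis1 and Pbx2 are shown, 1 for each kind of protein, because they carry the division of labor between Hox proteins and cofactors. They were read from GENCODE M21 transcripts on GRCm38, 5′ to 3′ on the coding strand, and capitals mark the bases for the 5 amino acids of the recognition helix that include the invariant tryptophan, phenylalanine and asparagine.
Hoxa10: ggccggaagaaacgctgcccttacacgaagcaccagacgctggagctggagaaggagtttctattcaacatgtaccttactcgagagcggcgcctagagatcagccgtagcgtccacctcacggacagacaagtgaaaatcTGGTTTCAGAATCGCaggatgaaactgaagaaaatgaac
Meis1: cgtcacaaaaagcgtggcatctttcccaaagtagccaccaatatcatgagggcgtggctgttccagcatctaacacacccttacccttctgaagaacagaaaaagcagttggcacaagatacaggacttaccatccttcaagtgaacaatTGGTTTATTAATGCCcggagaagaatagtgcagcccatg
Pbx2: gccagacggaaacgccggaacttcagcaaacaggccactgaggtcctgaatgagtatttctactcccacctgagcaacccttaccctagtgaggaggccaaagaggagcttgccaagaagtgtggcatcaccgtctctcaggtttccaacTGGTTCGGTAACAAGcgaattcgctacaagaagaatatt
The homeobox of each Hox gene sat in 1 coding exon and had 180 bases, and that of Meis1, Pbx2 or Pbx3 was spread over 3 coding exons and had 189 bases. That of Hoxa10 lies at chr6:52232554-52232733, minus strand. The exons of the Meis1 homeobox fall within chr11:18885615-18941733, minus strand, and those of Pbx2 within chr17:34594424-34594848, plus strand. Hoxa5 and Hoxb5, which hold the same position in the HoxA and HoxB clusters, shared 83.9% of their homeobox bases, Pbx2 and Pbx3 82.5%, and Meis1 and Pbx2 50.8%. A read lying wholly within a stretch shared between homeoboxes would fit more than 1 gene, also for Hox genes whose homeobox is not shown. Whether any reads did was not tested.

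The libraries were checked before the genes were compared. Whole reads could be recovered from the deposited values and came to between 10298015 and 15090610 on listed genes in each library. Control replicates 1 and 3 differed from each other by little more than counting noise (a chi-squared per gene of 1.51, where noise alone gives about 1), as did the IGF1 libraries (1.68 to 1.86). Control replicate 2 stood apart from both other controls (220 and 222) and lay closer to the IGF1 libraries (23.5 to 26.6), so the changes of the 9 genes and the calls of the gene lists are given with and without it. That choice rested on these same values, and leaving it out keeps controls that differ by little more than counting noise. P-values without control replicate 2 measure that small spread. They and the calls made from them are not separate evidence of a change. Over the 3438 genes that differed more than 2-fold between the IGF1 libraries and the other controls, control replicate 2 lay at a median of 80.1% of the way to the IGF1 libraries (quartiles 67.7% and 91.4%). Markers of HSCs were present, among them Kit at 24.2 to 105 FPKM (a read density corrected for gene length and library depth) and Ly6a, which codes for Sca-1, at 219 to 615 FPKM. The sort removed cells with surface CD34 or Flt3, yet Cd34 mRNA stood at 230 to 640 FPKM and Flt3 mRNA at 117 to 188 FPKM. Of other genes whose surface products the sort selects against, Cd3e and Ly6g stayed at or below 0.206 FPKM, while Itgam, which codes for a subunit of Mac-1, stood at 4.46 to 7.96 FPKM. Neutrophil genes were abundant, with S100a8 at 55 to 285 FPKM and S100a9 at 12.1 to 81.8 FPKM.

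Of the 9 genes, 5 had at least 1 FPKM in all 6 libraries (Hoxa5, Hoxa7, Hoxa9, Hoxa10 and Meis1). Hoxb4, Pbx2 and Pbx3 fell below 1 FPKM in 1 library each, which was control replicate 1 for Hoxb4 and Pbx3 and control replicate 3 for Pbx2. Hoxb5 was below 1 FPKM in all 6 libraries. The other 8 genes reached 1 FPKM in at least 5 libraries and were tested with limma on log2(FPKM + 1) together with all 10449 genes that reached 1 FPKM in at least 3 libraries. FPKM is scaled to gene length, so levels of different genes can be set side by side. The annotated spans of Hoxa5 and Hoxa7 (with Hoxaas3), Hoxb5 (Hoxb5os), Meis1 (Gm16140 and Gm16141) and Pbx3 (C79798) overlap antisense genes that have no row, and reads of both strands cannot be told apart unless counting used strand, which is not stated. On the same strand, Gm28308 overlaps Hoxa5, Mir196b overlaps Hoxa9, and Gm37818, 2900018N21Rik and 2610001A08Rik overlap Meis1. These have no row either, counting by strand would not set them apart, and their part was not tested.

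**Figure D1:**
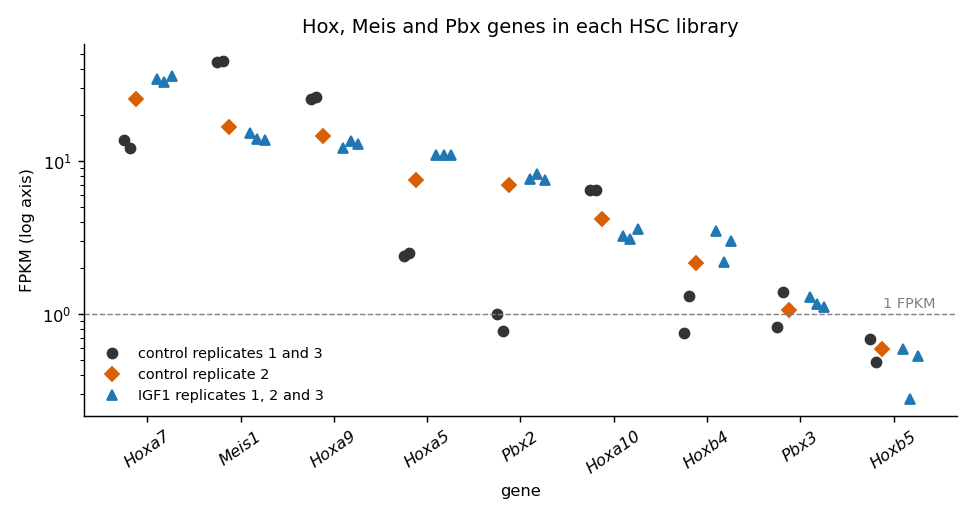
FPKM (log axis) of the 9 genes in each library, ordered by their mean over all libraries, with 1 point per library and a dashed line at 1 FPKM. Control replicate 2 (diamond) lies close to the IGF1 libraries (triangles) for Meis1, Hoxa9 and Pbx2, and Hoxb5 lies below the line in every library.

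In control HSCs the order of the mean levels was Meis1 (35.5 FPKM), Hoxa9 (22.1), Hoxa7 (17.2), Hoxa10 (5.74), Hoxa5 (4.16), Pbx2 (2.91), Hoxb4 (1.41), Pbx3 (1.10) and Hoxb5 (0.592 FPKM). Neighbors in this order overlapped over the control libraries, except Hoxa7 with Hoxa10 and Pbx3 with Hoxb5. In IGF1 HSCs Hoxa7 came first (34.5 FPKM), followed by Meis1 (14.3), Hoxa9 (12.9), Hoxa5 (10.9), Pbx2 (7.82), Hoxa10 (3.32), Hoxb4 (2.91), Pbx3 (1.19) and Hoxb5 (0.469 FPKM), and among neighbors only Hoxa10 and Hoxb4 overlapped. Without control replicate 2 the control order began with Meis1 (44.9 FPKM), Hoxa9 (25.8) and Hoxa7 (12.9), all separate from each other, and Pbx2 dropped to the eighth place (0.889 FPKM), where only Pbx3 with Hoxb4 and Hoxb4 with Pbx2 overlapped.

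The genes did not share 1 direction between control and IGF1 HSCs. All IGF1 libraries lay above all controls for Hoxa5, Hoxa7, Hoxb4 and Pbx2, an arrangement that 21.9% of the genes tested had. All IGF1 libraries lay below all controls for Hoxa9, Hoxa10 and Meis1, as they did for 37.4% of the genes tested. The groups overlapped for Pbx3 and Hoxb5. An exact permutation test of 3 against 3 libraries gave p = 0.1 (2-sided) for each of the 7 genes whose groups did not overlap, the smallest value this design allows. Calls required both more than a 2-fold change and an adjusted p below 0.05, and by that rule 1 of the 8 tested genes, Hoxa7, was called higher, beside 1.98% of all genes tested. None of the 8 was called lower, beside 4.63% of all genes tested. By adjusted p alone 1 of 8 passed in limma, where 20.4% of all genes did, and 7 of 8 had an unadjusted p under 0.05, where 53.4% of all genes did. Meis1 was the 1 gene lower by over 2-fold at an unadjusted p under 0.05. Without control replicate 2, 3 genes were called higher (Hoxa5, Hoxa7 and Pbx2; background 12.3%) and 1 lower (Meis1; background 20.6%), and 7 of 8 passed the adjusted p alone, as did 88.5% of all genes tested. The median log2 fold change of the 8 genes was 0.40, against -0.18 over all genes tested, and without control replicate 2 it was 0.50 against -0.24. In these bulk samples fewer cells of a type and less RNA per cell cannot be told apart.

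**Figure D2:**
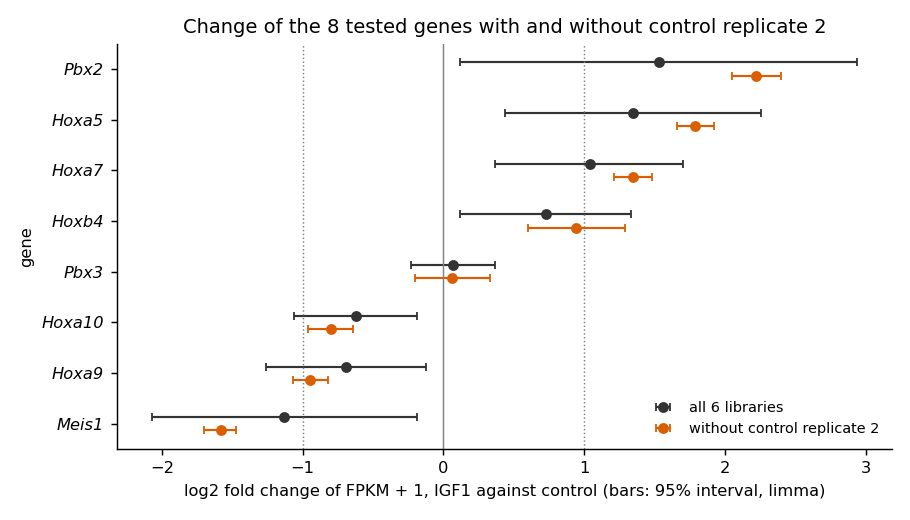
Log2 fold change (IGF1 against control, on FPKM + 1) of the 8 tested genes with its 95% interval from limma, for all 6 libraries (black) and without control replicate 2 (orange). Dotted lines mark a 2-fold change. Each gene except Pbx3 lies farther from 0, with a shorter interval, once control replicate 2 is left out.

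Hoxa5, Hoxa7, Hoxa9 and Hoxa10 lay on both sides of 0, and only Hoxa7 was called with all libraries. Hoxa5 and Hoxa7 read higher in the IGF1 libraries and Hoxa9 and Hoxa10, which lie next to them in the cluster on chr6, read lower. Hoxa4, on the other side of Hoxa5, overlapped between the groups, and an order along the cluster was not tested. The gene bodies follow each other on the minus strand of GRCm38, Hoxa5 at chr6:52201754-52204587, Hoxa7 at chr6:52214491-52221854, Hoxa9 at chr6:52223100-52231089 and Hoxa10 at chr6:52231197-52240854.

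Hoxa7, a gene often switched on together with Hoxa9 in leukemia, read 13.7, 25.6 and 12.2 FPKM in control replicates 1 to 3, against 34.6, 32.7 and 36.2 FPKM in IGF1 replicates 1 to 3. Every IGF1 library was above every control, and control replicate 2 lay 69.2% of the way from the other controls to the IGF1 libraries. Its log2 fold change was 1.04 (SE 0.27, 95% interval 0.37 to 1.70, limma adjusted p = 0.0482), just past both thresholds. Leaving out control replicate 2 gave 1.35 (SE 0.06, limma adjusted p = 1.15e-08), but without any 1 of the other 5 libraries the call was lost (limma adjusted p = 0.157 to 0.165), as it was with a replicate block (limma adjusted p = 0.0851). The values rested on 385 to 911 reads, which gave a counting error of 3.31% to 5.10% per library.

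Hoxa5, which favors myeloid over erythroid development when overexpressed, read 2.39, 7.57 and 2.51 FPKM in control replicates 1 to 3, against 11, 10.9 and 10.9 FPKM with IGF1. The IGF1 libraries agreed within counting error, the groups did not overlap, and control replicate 2 stood at about 3 times the other controls. A log2 fold change of 1.35 (SE 0.37, 95% interval 0.44 to 2.26) was larger than that of Hoxa7, but its limma adjusted p of 0.0509 missed the threshold. Hoxa5 was called higher, with a log2 fold change of 1.79 (SE 0.06, limma adjusted p = 1.46e-09), once control replicate 2 was left out, and had means of 10.9 against 2.45 FPKM, a 4.46-fold difference. Hoxa5 lies within the annotated span of Hoxa3, but the exons of both genes share 0 bases, and Hoxa3 stayed at 0.238 to 0.664 FPKM. Gm28308, another protein-coding gene on the same strand, also overlaps Hoxa5 and has no row, so its part was not tested.

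Hoxa9, the HoxA gene whose loss most clearly weakens HSCs in mice, read 25.3, 14.7 and 26.3 FPKM in control replicates 1 to 3, against 12.2, 13.6 and 13 FPKM with IGF1. All IGF1 libraries were below the controls, but control replicate 2 was only slightly above the highest of them, 81.2% of the way from the other controls. The log2 fold change was -0.69 (SE 0.23, 95% interval -1.26 to -0.12, limma adjusted p = 0.0655) and did not pass. Leaving out control replicate 2 gave -0.95 (SE 0.06, limma adjusted p = 9.6e-08), past the p threshold and short of a 2-fold change. With 726 to 2040 reads per library, counting error was 2.21% to 3.71%, far below the gap between control replicate 2 and the other controls.

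Hoxa10, which expands early progenitors when overexpressed, read 6.52, 4.22 and 6.50 FPKM in control replicates 1 to 3, against 3.26, 3.12 and 3.58 FPKM with IGF1. The groups did not overlap and control replicate 2 was the lowest control, as for Hoxa9. The log2 fold change was -0.62 (SE 0.18, 95% interval -1.06 to -0.19, limma adjusted p = 0.0526), and without control replicate 2 it was -0.80 (SE 0.07, limma adjusted p = 2.38e-06). In neither fit did it reach a 2-fold change.

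Ratios within a library do not depend on how the libraries were scaled to each other. They can still carry the trends of each library on gene length and GC content described below. These trends were not removed from the ratios or from the HoxA shares. Hoxa7 over Hoxa9 was 0.540, 1.74 and 0.465 in the controls and 2.84, 2.40 and 2.79 in the IGF1 libraries, so Hoxa9 was the higher gene in control replicates 1 and 3 and Hoxa7 in the other 4 libraries. The groups did not overlap (exact permutation p = 0.1, 2-sided, the smallest possible). Hoxa10 over Hoxa9 was 0.258, 0.287 and 0.247 in the controls and 0.268, 0.229 and 0.276 in the IGF1 libraries. These overlapped (exact permutation p = 0.8), and over all 6 libraries the pair kept a ratio between 0.229 and 0.287 while Hoxa9 itself varied from 12.2 to 26.3 FPKM. By the root-mean-square distance of centered log2(FPKM + 1) over the 6 libraries, Hoxa9 and Hoxa10 were also each other's nearest gene among the 14 other tested Hox and TALE genes (0.11), and the nearest gene to Hoxa5 was Hoxa7 (0.21).

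Summed over the cluster, HoxA levels were 49.5, 56.4 and 49.7 FPKM in control replicates 1 to 3, against 64.7, 63.8 and 66.4 FPKM with IGF1. The summed FPKM of all genes differed too. It was 466619, 635111 and 466135 in control replicates 1 to 3, against 677826 to 680285 with IGF1. A higher HoxA sum thus does not mean a higher HoxA share of all FPKM. Hoxa9 made up 51.1%, 26.1% and 53.0% of the HoxA sum in the controls and 18.8%, 21.3% and 19.5% in the IGF1 libraries. Hoxa7 made up 27.6%, 45.3% and 24.6% in the controls and 53.4%, 51.2% and 54.5% in the IGF1 libraries. Hoxa9 thus led the cluster in control replicates 1 and 3, and Hoxa7 led it in control replicate 2 and in all IGF1 libraries. Hoxa5 made up 4.84% and 5.05% in control replicates 1 and 3, 13.4% in control replicate 2 and 16.4% to 17.1% in the IGF1 libraries.

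**Figure D3:**
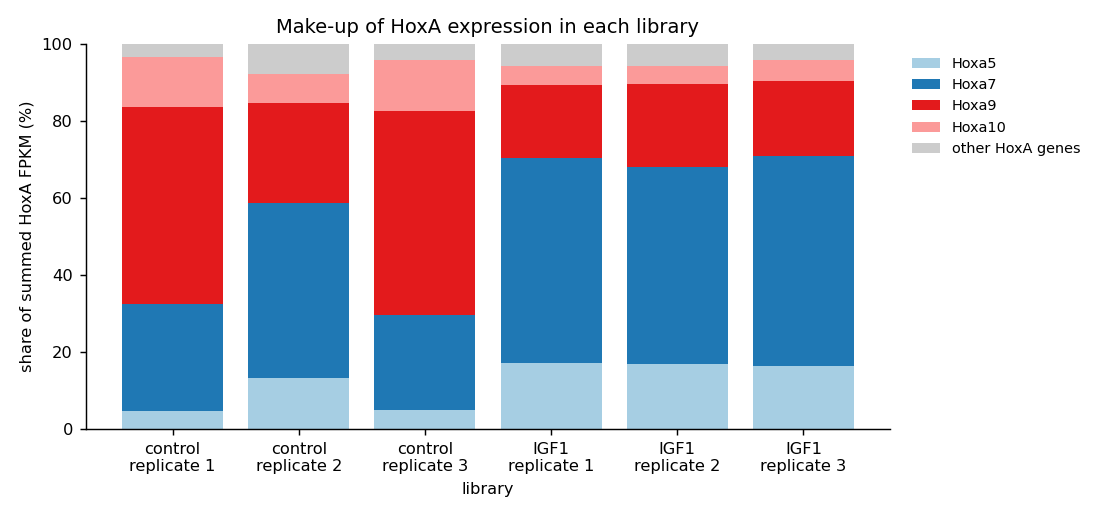
Share of the summed HoxA FPKM (%) taken by Hoxa5, Hoxa7, Hoxa9, Hoxa10 and the other HoxA genes in each library, as stacked bars. Hoxa9 takes 51.1% and 53.0% in control replicates 1 and 3, and Hoxa7 takes 45.3% to 54.5% in control replicate 2 and the IGF1 libraries.

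Of the HoxB genes, Hoxb4, which expands HSCs when overexpressed, read 0.754, 2.16 and 1.31 FPKM in control replicates 1 to 3, against 3.49, 2.20 and 3.02 FPKM with IGF1. The gene, at chr11:96318267-96321638 on the plus strand, had 31 to 111 reads per library. The groups were separate only by the narrow gap between control replicate 2 and IGF1 replicate 2, which had 64 reads each and whose 95% Poisson intervals (1.66 to 2.76 and 1.70 to 2.81 FPKM, counting error only) overlapped almost fully. The log2 fold change was 0.73 (SE 0.25, 95% interval 0.12 to 1.33, limma adjusted p = 0.068), and without control replicate 2 it was 0.94 (SE 0.15, limma adjusted p = 0.000214), under the 2-fold threshold in both fits. The added 1 FPKM weighs on so low a gene, and the mean IGF1 level was 2.06-fold that of all controls and 2.82-fold that of control replicates 1 and 3. With a pseudocount of 0.1 the log2 fold change was 1.08 and with voom on the recovered reads 1.23, and neither passed (limma adjusted p = 0.0742 and 0.0627).

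Hoxb5, a marker of long-term HSCs in mice, lies beside Hoxb4 at chr11:96303336-96306121, plus strand. It read 0.691, 0.594 and 0.491 FPKM in control replicates 1 to 3, against 0.596, 0.279 and 0.532 FPKM with IGF1, from 6 to 21 reads. It was below 1 FPKM throughout and was left out of the main fit. Only the alternative with no filter fitted it across all genes, and 0 members were called there. The groups overlapped, an exact permutation test gave p = 0.5 (2-sided), and the 95% Poisson intervals of the single libraries spanned 0.103 to 1.06 FPKM, so no difference was detectable at this depth.

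The cofactor genes were divided as well. Meis1, which keeps HSCs quiescent and limits oxidative stress in them, lies at chr11:18879817-19018985 on the minus strand. It was the highest of the 9 genes in control replicates 1 and 3, and read 44.5, 16.8 and 45.2 FPKM in control replicates 1 to 3, against 15.2, 13.9 and 13.8 FPKM with IGF1. All IGF1 libraries were below all controls, and control replicate 2 lay 86.3% of the way down to them. Its log2 fold change was -1.13 (SE 0.38, 95% interval -2.07 to -0.19, limma adjusted p = 0.0675) and was not called. Meis1 was called lower once control replicate 2 was left out, with a log2 fold change of -1.58 (SE 0.05, limma adjusted p = 1.3e-09) and 44.9 FPKM in the remaining controls against 14.3 FPKM, a 3.14-fold difference. The counts behind it were large, 819 to 3799 reads, so counting error was at most 3.49%.

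Pbx2, whose loss alone leaves blood formation in mice largely intact, read 1.0, 6.96 and 0.775 FPKM in control replicates 1 to 3, against 7.66, 8.20 and 7.59 FPKM with IGF1. It set control replicate 2 apart more than the other tested genes of the 9 did, with 225 reads against 45 and 35 in the other controls, or 93.4% of the way to the IGF1 libraries. Its log2 fold change was 1.53 (SE 0.58, 95% interval 0.12 to 2.94, limma adjusted p = 0.0799), the largest of the 8 and the one with the largest SE. Leaving out control replicate 2 gave 2.22 (SE 0.08, limma adjusted p = 2.13e-09), and the means were 7.82 against 0.889 FPKM, an 8.79-fold difference. Pbx2, at chr17:34591266-34597400 on the plus strand, shares 227 of its 3640 exonic bases with Gpsm3 on the same strand, and Gpsm3 read at most 10.4 FPKM in control replicates 1 and 3 and 23.0 FPKM in control replicate 2, against 29.1 to 32.2 FPKM with IGF1. The part of Gpsm3 reads in the Pbx2 values was not tested.

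Pbx3, a partner of HOXA9 in leukemia, lies at chr2:34171457-34373142 on the minus strand. It read 0.821, 1.07 and 1.40 FPKM in control replicates 1 to 3, against 1.29, 1.16 and 1.11 FPKM with IGF1. The groups overlapped (exact permutation p = 0.7), with 43 to 79 reads per library. The log2 fold change was 0.07 (SE 0.12, limma adjusted p = 0.645), with a 95% interval of -0.23 to 0.37, and without control replicate 2 it was 0.06 (SE 0.12). This value depended on the processing. It was -0.02 under quantile normalization and 0.78 (limma adjusted p = 0.0515) with the length and GC trends described below removed. Pbx3 was the only tested gene of the 9 for which control replicate 2 was not closer to the IGF1 mean than to the mean of the other controls.

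Set against each other within a library, Pbx2 over Meis1 was 0.0225, 0.415 and 0.0171 in the controls and 0.504, 0.591 and 0.549 in the IGF1 libraries. The groups did not overlap, and Meis1 remained the higher gene in all 6 libraries. Meis1 over Hoxa9 was 1.76, 1.14 and 1.72 in the controls and 1.25, 1.02 and 1.07 in the IGF1 libraries, groups that overlapped (exact permutation p = 0.2). Meis1 was the higher gene of that pair too in every library.

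The rest of the Hox and TALE families was read from the same fit. Outside the 9 genes, Hoxa4 and Hoxb2 were the only Hox genes that reached 1 FPKM in at least 3 libraries, and neither was called. Hoxa4, a neighbor of Hoxa5, read 0.449, 1.87 and 0.568 FPKM in control replicates 1 to 3, against 1.48, 1.44 and 1.02 FPKM with IGF1, with the groups overlapping (log2 fold change 0.30, limma adjusted p = 0.381, 0.61 without control replicate 2, and -0.10 with the length and GC trends described below removed). Hoxb2 read 0.815, 1.46 and 0.811 FPKM in control replicates 1 to 3, against 1.84, 1.54 and 1.77 FPKM with IGF1, all above the controls (log2 fold change 0.44, limma adjusted p = 0.0683, and 0.58 without control replicate 2). Of the 9 HoxC genes 7, and of the 9 HoxD genes 8, were listed at 0 in every library, and none of the 18 reached 1 FPKM. Expression was thus read in a block of the HoxA cluster from Hoxa4 to Hoxa10, with Hoxa6 low, and in the 3′ part of the HoxB cluster.

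**Figure D4:**
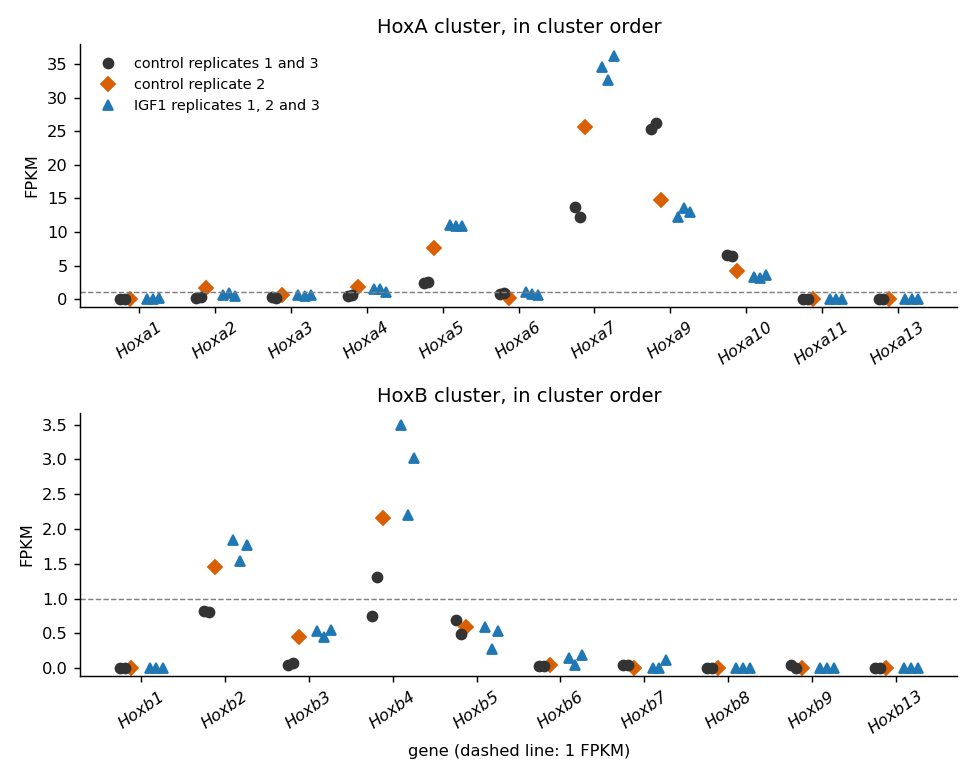
FPKM of the HoxA genes (top) and HoxB genes (bottom) in cluster order, with 1 point per library and a dashed line at 1 FPKM. Hoxa5, Hoxa7, Hoxa9 and Hoxa10 stand out in HoxA, reaching 36.2 FPKM, and HoxB values stay at or below 3.49 FPKM.

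Among the 11 TALE genes, 8 were tested, 4 with a log2 fold change above 0 and 4 below, and 0 were called, with a median of -0.02 (-0.06 without control replicate 2). Without control replicate 2, 3 were called higher, Pbx2 and Pbx4 among them, beside 12.3% of all genes tested. In that fit 2 (Meis1 and Pknox1) were called lower, beside 20.6%. Pbx4 read 9.75, 16.0 and 7.75 FPKM in control replicates 1 to 3, against 18.1 to 21.5 FPKM with IGF1 (log2 fold change 0.83, limma adjusted p = 0.0575) and was the nearest gene to Hoxa7 in its pattern (distance 0.16). Pknox1, which codes for the Meis relative Prep1, read 16.2, 6.22 and 15.8 FPKM in control replicates 1 to 3, against 6.42, 7.34 and 7.46 FPKM with IGF1 (log2 fold change -0.66, limma adjusted p = 0.161), and it was the nearest gene to Meis1 (0.26). Tgif1 (log2 fold change -0.11) and Tgif2 (-0.39) did not pass either, with limma adjusted p of 0.405 and 0.089, and Tgif1 lay above 0 (0.10 to 0.52) under quantile, 75th percentile and median ratio scaling and with those trends removed. Meis2 was listed at 0 in every library, and Meis3 had 0.656 to 1.29 FPKM.

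Genes that maintain or read out Hox expression were described from lists. All 15 listed genes of the MLL, menin and DOT1L machinery, which keeps HoxA chromatin active, and its associates were tested, 6 above and 9 below 0, with a median log2 fold change of -0.41 beside -0.18 over all genes tested (-0.61 beside -0.24 without control replicate 2). Only Ash2l, a core subunit of MLL complexes, was called (lower, as were 4.63% of all genes tested). It read 64.4, 26.9 and 63.2 FPKM in control replicates 1 to 3, against 17.7, 18.3 and 16.9 FPKM with IGF1 (log2 fold change -1.39, limma adjusted p = 0.0457, and -1.80 without control replicate 2). Kmt2a, which codes for MLL1 itself, read 1.43, 6.90 and 1.37 FPKM in control replicates 1 to 3, against 8.91, 8.32 and 8.29 FPKM with IGF1 (log2 fold change 1.41, limma adjusted p = 0.0674, and 1.99 without control replicate 2). Kat7 and Rbbp5 had log2 fold changes of -1.27 and -1.08 (limma adjusted p = 0.0592 and 0.0725). When control replicate 2 was left out, 3 of the 15 (Kmt2a, Dpy30 and Dot1l) were called higher, beside 12.3% of all genes tested, and 5 (Men1, Ash2l, Rbbp5, Nup98 and Kat7) lower, beside 20.6%. The same list held Cdx1, Cdx2 and Cdx4, which switch on Hox genes in the embryo and were listed at 0 in all libraries.

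Of 15 genes known as targets of HOXA9 or MEIS1, 13 were tested, 7 above and 6 below 0. Their median log2 fold change was 0.15, beside -0.18 over all genes tested (0.31 beside -0.24 without control replicate 2). Pim1, a survival kinase, was the only one called (higher, as were 1.98% of all genes tested). It read 12.9, 23.8 and 14.1 FPKM in control replicates 1 to 3, against 34.8, 34.5 and 33.1 FPKM with IGF1 (log2 fold change 1.02, limma adjusted p = 0.0419, and 1.28 without control replicate 2). Hif1a, Cd34 and Myb had log2 fold changes of -1.37, -1.03 and -0.93 with limma adjusted p of 0.072, 0.0714 and 0.0889. When control replicate 2 was left out, 3 of the 13 (Sox4, Erg and Pim1) were called higher and 4 (Myb, Cd34, Camk2d and Hif1a) lower, beside the same 12.3% and 20.6% of all genes. Flt3 and Cd34 in this list are also genes that the sort selects against at the surface.

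Markers of HSCs and of other cells were summed in each library. Control replicate 2 alone gave the highest control sum of each list below, except for stromal and endothelial markers, where it gave the lowest. Of 12 HSC markers, Hoxb5 among them, 10 were tested, 0 were called and 8 lay below 0. Their median log2 fold change was -0.55, beside -0.18 over all genes tested. When control replicate 2 was left out, it was -0.73 beside -0.24, and 4 were called lower, beside 20.6% of all genes tested. The summed level of the 12 was 476 to 721 FPKM in the controls, against 463 to 480 FPKM with IGF1. Kit stood at 105, 31.4 and 104 FPKM in the controls and at 24.2 to 24.6 FPKM with IGF1, and did not pass (limma adjusted p = 0.0602). The summed neutrophil and monocyte markers were 3270 to 4720 FPKM in the controls, against 4830 to 4850 FPKM with IGF1, while 4 of the 10 tested, Ngp, Camp, S100a8 and S100a9, were called lower, beside 4.63% of all genes tested. These 4 were also called lower without control replicate 2, beside 20.6% of all genes tested. In that fit Elane, Prtn3 and Ly6c2 were called higher, beside 12.3%, with log2 fold changes of 2.90, 1.62 and 3.57. The 6 tested B cell markers all lay above 0 and none was called, with sums of 111 to 423 FPKM in the controls, against 391 to 407 FPKM with IGF1. Without control replicate 2, 4 were called higher, beside 12.3% of all genes tested. The sums in controls and IGF1 libraries were 359 to 778 and 769 to 789 FPKM for T and NK cell markers, of which all but Nkg7 stayed at or below 1.23 FPKM, 42.1 to 114 and 57.3 to 63.2 FPKM for erythroid markers, and 26.3 to 50.3 and 28.8 to 29.7 FPKM for stromal and endothelial markers. None of these was called, and without control replicate 2 only Nkg7 was (higher, log2 fold change 1.11). For megakaryocyte and platelet markers the sums were 52.3 to 75.2 and 93.7 to 104 FPKM, and Gp1bb was called higher, beside 1.98% of all genes tested. When control replicate 2 was left out, Pf4 and Gp9 were called higher as well, beside 12.3%. The part of these cells in the Hox and TALE values was not tested.

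The genes differ in length and base composition. Meis1 and Hoxa9, with 42.4% and 49.5% GC, are long gene models (5211 and 4809 bases as implied by the deposited values), and Pbx2 and Hoxa7, with 55.6% and 52.6% GC, are shorter (2801 and 1952 bases). GC did not follow direction for all genes. Hoxa10, which read lower with IGF1, has 53.1% GC (3142 bases), and Hoxa5, which read higher, has 49.8% GC (1877 bases). When trends of each library on gene length and GC content were removed, the log2 fold change of Hoxa9 went from -0.69 to -0.25 (limma adjusted p = 0.121), that of Meis1 from -1.13 to -0.87 (limma adjusted p = 0.0955) and that of Pbx3, the gene lowest in GC, from 0.07 to 0.78 (limma adjusted p = 0.0515). Hoxa5 then passed both thresholds, with 1.45 (limma adjusted p = 0.0491), and Hoxa7 was at 1.07 (limma adjusted p = 0.0482). With the same trends removed and control replicate 2 also left out, an alternative chosen after seeing the data, Hoxa5 (1.88), Hoxa7 (1.37), Hoxb4 (1.11) and Pbx2 (2.49) were called higher and Meis1 (-1.28) lower, while Hoxa9 (-0.34), Hoxa10 (-0.53) and Pbx3 (0.97) stayed under a 2-fold change. Of the 10101 genes tested in that fit, 1152 were called higher and 940 lower, and 84% passed the adjusted p alone.

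**Figure D5:**
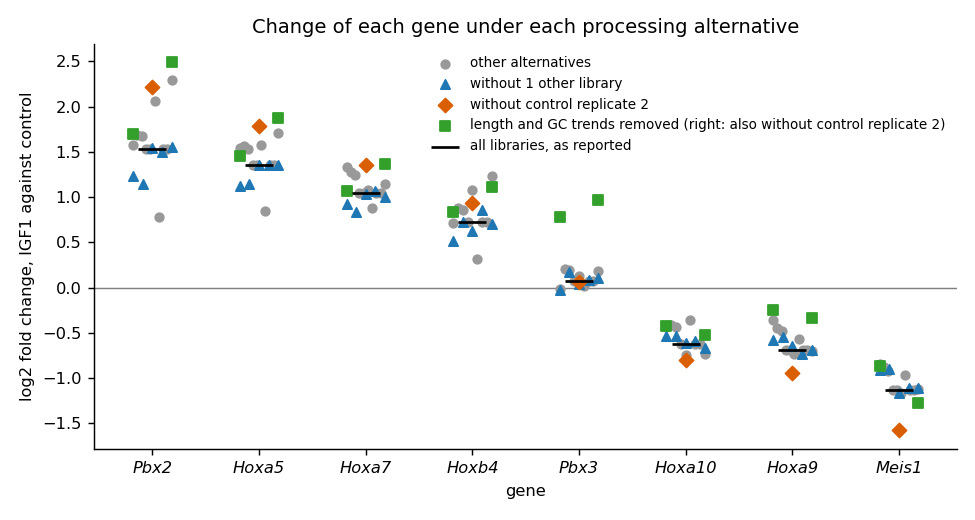
Log2 fold change (IGF1 against control) of the 8 tested genes under each processing alternative, with the reported value as a black bar. Points of 7 genes stay on 1 side of 0, and those of Pbx3 run from -0.03 to 0.97.

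The upstream sequences were searched for the paired Pbx-Hox motif TGATNNAT and the Meis motif TGACAG, on both strands, in the 250 bases before each RefSeq start. Of all 32851 promoters 7.68% held the first and 15.9% the second, and 0 of the 8 promoters listed for 7 of the genes (all but Hoxb5 and Pbx3) held either, which says only that these letters are not in these windows.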

How the data were processed

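The members and gene lists were chosen with earlier results of these data known. Cells were sorted as Lin- Sca1+ c-Kit+ CD34- Flk2-, and libraries were made with a stranded mRNA kit. The submitters' processing notes name fastp, HISAT2, StringTie and GRCm38 (mm10), whereas the methods of the study name fastp, RSEM and DESeq2. Whether counting used strand is not given in the sources used here. The authors quantified the trimmed reads per gene and deposited normalized values, taken here as FPKM. No file names the unit, but the values of a gene were whole multiples of 1 step, smaller for longer genes. The steps gave whole reads (within 0.01 read) for 12597 of the 12620 genes above 0 in all libraries (99.82%), against 1 of 2000 jittered rows. Poisson intervals cover counting error only.

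The 10449 genes that passed the filter were compared with limma 3.58.1 (eBayes with a trend, 2-sided) in R 4.3.3 on log2(FPKM + 1), which understates changes of low genes, with Benjamini-Hochberg adjustment over all of them. The fit was tested on simulated data. Thresholds for calls followed the study. All 9 members were named, with all other tested Hox and TALE genes, called genes of the lists and otherwise up to 4 genes a list with the largest change. A few items that this rule or the labels would name are not reported here. Dpy30, Dot1l, Men1, Nup98, Sox4, Erg, Camk2d, Ly6a, Itgam, Nkg7, Elane, Prtn3, Ly6c2, Pf4, Gp9, the Cdx genes and the genes overlapping members were named after their values were seen. None of the 16 noncoding RNA genes listed for the Hox clusters had a row, so they are not analysed here. Alternatives were other normalizations, filters, pseudocounts and variance models, a replicate block, leaving out each library, voom (limma) on the recovered reads, removal of length and GC trends, and no fold threshold. Trend removal without control replicate 2 was added after seeing the data.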

Additional observations from a re-analysis of the deposited data

How the results depend on the processing

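Hoxa5, Hoxa7, Hoxb4 and Pbx2 stayed above 0 and Hoxa9, Hoxa10 and Meis1 below 0 in all alternatives that tested them. Pbx3 turned to -0.02 under quantile normalization and ran from -0.03 (without control replicate 1) to 0.17 when 1 library was left out. Hoxa7 lost its call in 8 of 18 alternatives. Of the members, 2 were called higher under quantile normalization, median ratio scaling, voom and removal of length and GC trends (Hoxa5 and Hoxa7 each time), and 0 with no filter, a pseudocount of 5 or the replicate block. Leaving out 1 library gave 0 to 3 members higher and 0 to 1 lower, and 0 to 1281 genes higher and 0 to 2157 lower. The calls came only without control replicate 2, and without any other single library 233 to 386 genes higher and 450 to 795 lower passed the fold threshold with p below 0.05 before adjustment. Over all genes (207 higher, 484 lower) the counts were 301 and 303 under quantile normalization, 300 and 259 with 75th percentile scaling, 321 and 245 with median ratio scaling, 109 and 265 with no filter, 66 and 157 with a pseudocount of 5, 402 and 651 with voom, 153 and 151 with trends removed, and 654 and 1476 with no fold threshold. Quantile normalization, 75th percentile and median ratio scaling moved the all-gene median of log2 fold changes from -0.18 to -0.02, 0.04 and 0.01, and the share of calls that were higher from 29.96% to 49.8%, 53.7% and 56.7%. Removal of trends gave 50.3%. With trends removed and control replicate 2 left out, chosen after seeing the data, 4 members were higher and 1 lower. Of the 10101 genes tested there, 1152 were higher and 940 lower (55.07% of calls higher), and Pbx3 reached 0.97. The cause of these shifts was not tested. The replicate block left 0 genes called in limma (680 higher and 1100 lower at an unadjusted p), and same-numbered libraries did not deviate together (correlations of -0.057, -0.050 and 0.006). These correlations cannot tell whether the numbers pair the libraries. The control deviations are dominated by control replicate 2, and the IGF1 libraries differ by little more than counting noise. Depth limits Hoxb5, Pbx3 and Hoxb4.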
